A study of Arabidopsis thaliana with 36 samples.

Results

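The response of wild-type Arabidopsis thaliana roots to low phosphate (Pi) was measured in 6 of the 36 samples of a study of otu5, a mutant of a deubiquitinating enzyme, whose stated question was how OTU5 acts in root development under Pi starvation. The members were the 3 libraries of wild type (WT) on control medium and the 3 of WT on low Pi medium, taken by library title, and all 20411 genes with at least 1 RPKM (reads per kilobase of gene length, relative to a library's mapped reads) in at least 3 of the 12 RNA libraries were compared. Roots were harvested 14 days after germination, from plants on plates at 21 °C in continuous light, and polyadenylated RNA was read as 100-bp sequences. The other 6 RNA libraries came from otu5 roots in the same 2 media and are used here for the spread between libraries and for 1 comparison. The Pi concentrations, the ecotype and the duration of the low Pi treatment are not given in the sources used here.

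Plants take up phosphorus as inorganic Pi and keep it at a set level in their cells. When Pi runs short, the transcription factor PHR1 and its relatives switch on genes for Pi transporters, secreted phosphatases and ribonucleases, and enzymes that exchange membrane phospholipids for galactolipids and sulfolipids. SPX proteins hold PHR1 back while Pi, sensed through inositol pyrophosphates, is plentiful. In roots the same condition is known for longer root hairs, for secretion of organic acids and for a close link with iron, since Pi binds iron in the medium.

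Some labels disagreed with each other. The culture condition label read high Pi for all WT libraries, low Pi ones included, so groups follow the titles and source names. Roots are the tissue in the tissue label and in the growth text, whereas the text on RNA isolation names rosette leaves. Root markers were present: all 13 markers of epidermis and root hair, all 11 of cortex, pericycle and stele, all 8 of root cap and all 13 of phloem passed the filter on low values. Of 16 seed and pollen markers 11 stayed under 1 RPKM in every WT library. The summed level of all 16 lay between 3.08 and 24.7 RPKM in control and between 2.61 and 4.1 RPKM in low Pi. Green leaf markers were nevertheless present, and the summed level of all 19 lay between 1359 and 1680 RPKM in control and between 1064 and 1360 RPKM in low Pi. Summed RPKM per library ran from 1025797 to 1330830, and the highest sum was that of control replicate 3, where the single locus AT2G01021 held 317971 RPKM against 21532 to 57634 in the other WT libraries. Relative depth, read from the steps of the lowest values, lay between 0.734 in control replicate 3 and 1 in control replicate 1. Absolute depth is unknown. Pearson's r across genes between replicates was 0.9732 to 0.9823, and no pair of libraries was alike enough to be the same library (at most 0.0098% of values identical). The labels do not state that replicates were grown or extracted apart, and p-values therefore measure the spread between these libraries, which may be technical. In bulk roots, fewer cells of a type and less RNA per cell cannot be told apart.

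Low Pi changed 875 of the 20411 genes at a limma adjusted p under 0.05, which is 4.29%. Of these, 520 were higher (2.55% of genes tested) and 355 were lower (1.74%), and their 6 WT values did not overlap between media in any of the 875. Non-overlapping values alone were common: 12.8% of all genes were higher and 12.5% lower in this sense. The rises were larger than the falls. At least 2-fold changes were found in 154 rises and 40 falls, at least 4-fold in 37 and 9, and at least 8-fold in 13 and 2, on the log2(RPKM + 0.5) scale. The median log2 fold change was 0.69 among the rises, -0.45 among the falls and -0.01 over all genes. The number of calls depended on every library. It was 387, 490 and 242 without control replicate 1, 2 and 3, and 602, 324 and 525 without low Pi replicate 1, 2 and 3. A core of 212 genes (1.04%) was called in the full fit and in all 6 of these fits, 132 higher (0.647%) and 80 lower (0.392%), and the genes with the largest changes named here belong to it unless the text says otherwise.

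**Figure D1:**
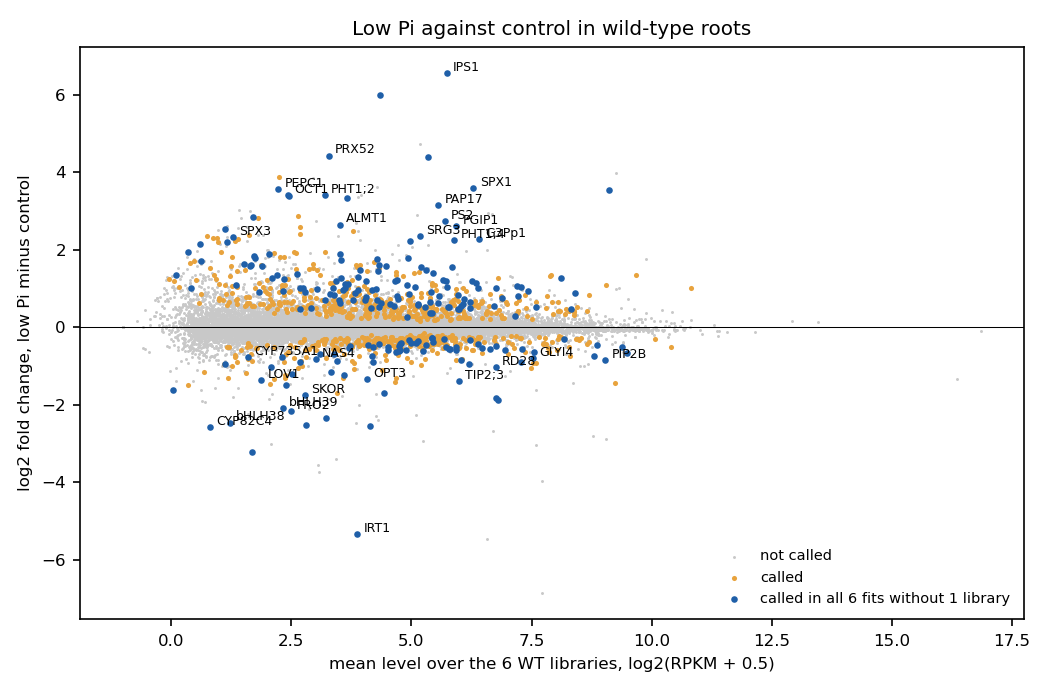
Each point is 1 of 20411 genes; the x axis gives the mean level in the 6 WT libraries as log2(RPKM + 0.5) and the y axis the log2 fold change of low Pi against control. Grey points were not called, orange points were called, and blue points were called in all 6 fits without 1 library. The rises reach 6.56 (IPS1) and the named falls -5.33 (IRT1).

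The genes listed here for the Pi starvation programme rose nearly throughout. Of 33 genes on a list of this core programme 28 were tested, 24 rose and 0 fell, against 2.55% of all genes rising. The median log2 fold change of the 28 was 1.8, and 19 of the 24 kept their call without any 1 library. With 1 library left out at a time, 19 to 25 of the 28 rose, the 25 including MGD2, which was not called in the full fit. NLA (AT1G02860), another gene studied in the Pi response but not on this list, was called lower in the full fit (log2 fold change -0.49). Its calls in the other fits are not given here.

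The non-coding RNAs that blunt the microRNA of Pi starvation showed the largest change of any called gene. IPS1 (AT3G09922), a decoy for miR399, was at 0.237, 0.723 and 0.647 RPKM in control replicates 1, 2 and 3 and at 164, 99.3 and 52.7 RPKM in low Pi replicates 1, 2 and 3. The log2 fold change came to 6.56 (SE 0.39, limma adjusted p = 3.7e-05). All low Pi libraries stood far above all controls, and among them replicate 1 was highest and replicate 3 lowest. The related AT4 RNA (AT5G03545) started from a much higher level, 84.4, 81.1 and 80.9 RPKM in control, and reached 1439, 1035 and 586 RPKM (a log2 fold change of 3.53, SE 0.25, adjusted p = 7.8e-05). The order of the low Pi libraries was the same. The microRNA genes themselves could not be followed, since all 10 loci of the MIR399, MIR827, MIR778 and MIR2111 families in the table were listed at 0 in all 6 WT libraries.

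SPX1, SPX2 and SPX3, whose proteins restrain PHR1, rose together, and other SPX genes are not described here. SPX1 (AT5G20150) was at 10, 12.8 and 9.78 RPKM in control and 207, 137 and 88.9 RPKM in low Pi, a log2 fold change of 3.60 (SE 0.29, adjusted p = 0.00017). SPX3 (AT2G45130) was near the floor in control, at 0.111, 0.338 and 0.377 RPKM, and at 5.3, 3.67 and 1.85 RPKM in low Pi (2.33, SE 0.37, adjusted p = 0.0082). SPX2 (AT2G26660) changed least, from 17.3, 18.2 and 20.4 to 47.2, 40.6 and 32.9 RPKM (1.08, SE 0.13, adjusted p = 0.0019). In each of the 3 genes the media did not overlap.

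Among the PHT1 transporters, which bring Pi into root cells together with protons, the member with the highest control level rose least. PHT1;1 (AT5G43350) was at 109, 127 and 114 RPKM in control and 265, 230 and 182 RPKM on low Pi medium (log2 fold change 0.94, SE 0.12, adjusted p = 0.0028). PHT1;4 (AT2G38940) went from 21.6, 19.6 and 18.6 to 128, 93.3 and 73.7 RPKM (2.24, SE 0.18, adjusted p = 0.00013). PHT1;2 (AT5G43370) went from 0.856, 0.875 and 0.901 to 26.8, 15.6 and 6.73 RPKM (3.42, SE 0.45, adjusted p = 0.0035). PHT1;2 was thus even between control libraries and uneven between low Pi libraries. PHT1;1 and PHT1;2 are close copies, and how reads were shared between such genes is not stated, so their split is uncertain. PHT1;9 rose from 0.784, 0.927 and 0.785 to 5.39, 3.8 and 2.34 RPKM. PHT1;8 was at 0.0279 RPKM or listed at 0 in control and at 2.09, 1.74 and 0.753 RPKM in low Pi. PHF1 (AT3G52190), whose protein lets PHT1 transporters leave the endoplasmic reticulum and which was chosen after its values were seen, rose from 29.8, 33.9 and 30.3 to 88.2, 75.4 and 55.8 RPKM (1.19, SE 0.15, adjusted p = 0.0021). By contrast PHO1, which loads Pi into the xylem, had a log2 fold change of -0.03 (adjusted p = 0.81), and its relative PHO1;H1 of 0.18 (adjusted p = 0.57).

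Enzymes that free Pi from organic compounds rose too. The purple acid phosphatase PAP17 (AT3G17790) was at 8.83, 9.01 and 8.33 RPKM in control and 111, 81.4 and 61 RPKM on low Pi medium (log2 fold change 3.16, SE 0.20, adjusted p = 4.2e-05). The phosphatase PEPC1 (AT1G17710), which acts on phosphoethanolamine and phosphocholine and shares only its abbreviation with the carboxylases below, was at 0.132, 0.0538 and 0.12 RPKM against 15.4, 6.82 and 2.66 RPKM (3.57, SE 0.54, adjusted p = 0.0065). Its relative PS2 (AT1G73010) was at 11.8, 15.5 and 10.4 RPKM against 120, 94.8 and 53.9 RPKM (2.73, SE 0.34, adjusted p = 0.0026). None of the 3 overlapped between media. Of the other phosphatases on the list, PAP12 rose by 1.04 (SE 0.13, adjusted p = 0.0019), while PAP10 rose by 0.54 (SE 0.10, adjusted p = 0.016) and lost its call without control replicate 3 (adjusted p = 0.072) or low Pi replicate 2 (0.062). The ribonuclease RNS1, which recycles Pi from RNA, rose from 0.327, 0.171 and 0.382 to 3.75, 3.1 and 2.58 RPKM.

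The lipid enzymes of the list divided into firm and less firm calls. SRG3 (AT3G02040, also called GDPD1), which cleaves glycerophosphodiesters left by phospholipid breakdown, was at 12.1, 10.9 and 9.73 RPKM in control and 86.5, 56.5 and 39.5 RPKM on low Pi medium (log2 fold change 2.36, SE 0.25, adjusted p = 0.001). PLDP2, a phospholipase D, rose by 1.78 (SE 0.22, adjusted p = 0.002), and SQD1, the first enzyme of sulfolipid synthesis, by 1.2 (SE 0.16, adjusted p = 0.0033). The calls of MGDC, SQD2, NPC4 and GDPD2 were lost in most fits without 1 library. MGDC, a galactolipid synthase, was at 1.61, 1.36 and 1.71 RPKM against 12.9, 6.28 and 3.68 RPKM (1.82, SE 0.36, adjusted p = 0.021), without overlap. It lost its call without control replicate 1, 2 or 3 (adjusted p = 0.065, 0.068 and 0.073) or low Pi replicate 2 (0.065). SQD2 was not called either in those 4 fits (0.085, 0.098, 0.12 and 0.084). NPC4, a phospholipase C, and GDPD2 lost theirs without any library except 1, low Pi replicate 3, with adjusted p from 0.058 to 0.12, and GDPD2 also with the replicate number as a block in WT (0.057). MGD2, the other galactolipid synthase on the list, was not called in the full fit (0.91, SE 0.29, adjusted p = 0.11) but was called higher with the replicate block in WT (0.041) and without low Pi replicate 3 (0.036), and its values did not overlap between media. The transcription factor WRKY75 was not called (1.19, adjusted p = 0.095).

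**Figure D2:**
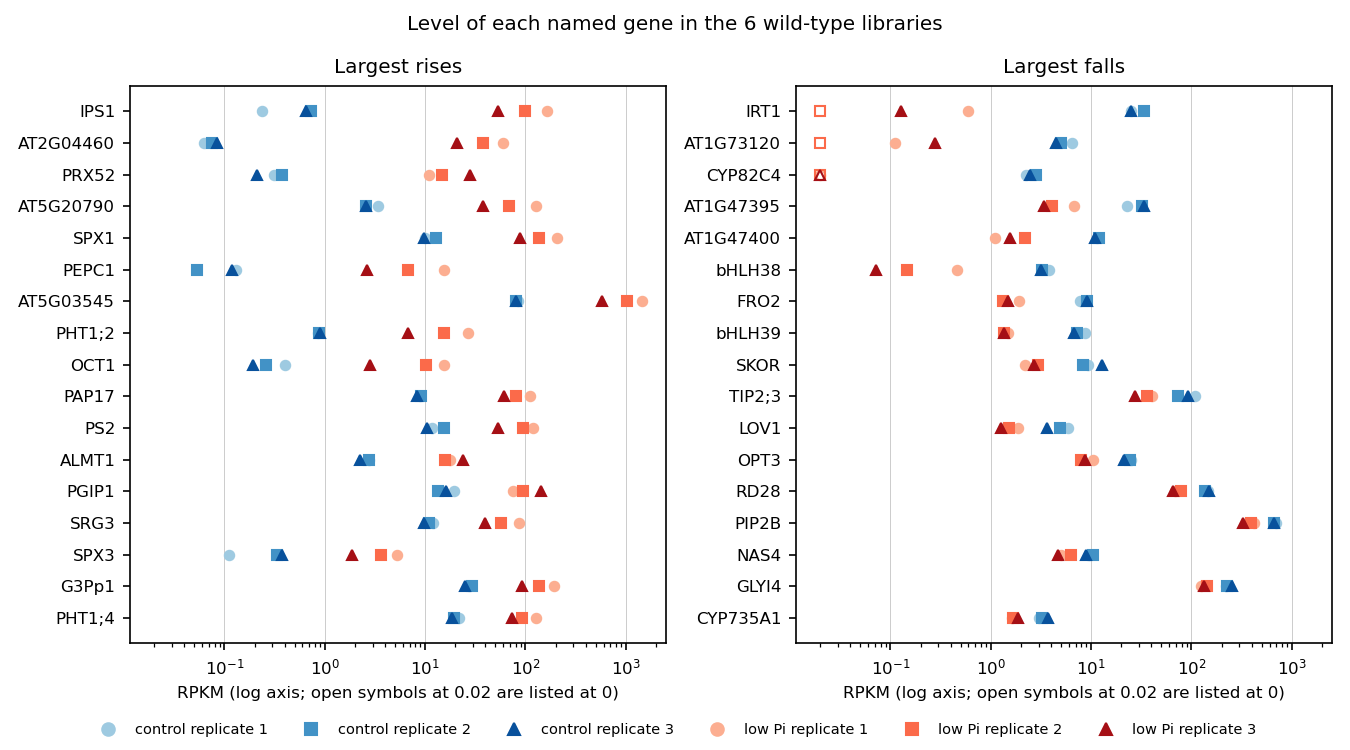
RPKM in each of the 6 WT libraries, on a log axis, for the genes with the largest rises (left) and falls (right); blue symbols are control and red symbols low Pi libraries, with 1 shape per replicate number. Low Pi replicate 1 lies right of replicate 3 for most rises, as in IPS1 (164 and 52.7 RPKM), and left of it for PRX52 (11 and 28.2 RPKM). No gene shown overlaps between media.

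Of 18 tested genes for moving Pi and phosphate esters across inner membranes, only G3Pp1 and PHT3;2 were called, both higher. The share called was 11.1%, against 4.29% of all genes. G3Pp1 (AT3G47420), a permease for glycerol-3-phosphate, was at 27.6, 29.5 and 25 RPKM in control and 191, 138 and 92.9 RPKM on low Pi medium (log2 fold change 2.28, SE 0.20, adjusted p = 0.00029). The mitochondrial carrier PHT3;2 was at 0.523, 0.279 and 0.356 RPKM against 3.26, 3.27 and 4.99 RPKM (2.28, SE 0.44, adjusted p = 0.02). Its call was lost without control replicate 1, 2 or 3 (adjusted p = 0.052, 0.064 and 0.078) or low Pi replicate 2 or 3 (0.06 and 0.064). G3Pp1 was then the single rise, and 1 gene of the list fell with the replicate block in WT. The median of the 18 was -0.02.

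Phosphatases of the PFA-DSP family, which act on inositol pyrophosphates, were followed after their values had been seen. All 5 genes of the family were tested, and 3 rose by nearly the same amount, against 2.55% of all genes rising. PFA-DSP1 (AT1G05000) was at 28.1, 32.9 and 25.1 RPKM in control and 94.7, 84.5 and 74.8 RPKM on low Pi medium (log2 fold change 1.55, SE 0.11, adjusted p = 6.4e-05). PFA-DSP2 went from 15.7, 22.3 and 16.8 to 58.5, 61 and 44 RPKM (1.55, SE 0.17), and PFA-DSP4 from 10, 10.8 and 11 to 35.8, 34.3 and 28 RPKM (1.57, SE 0.10). PFA-DSP3 and PFA-DSP5 had log2 fold changes of 0.32 (adjusted p = 0.52) and -0.22 (adjusted p = 0.25) and were not called. The 3 genes that rose differed less between low Pi libraries than the SPX or PHT1 genes did in RPKM ratio, and in PFA-DSP2 it was replicate 2 that was highest.

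Transporters outside the Pi lists were among the largest rises. OCT1 (AT1G73220), an organic cation and carnitine transporter, was at 0.402, 0.259 and 0.193 RPKM in control and 15.4, 10.3 and 2.82 RPKM on low Pi medium (log2 fold change 3.41, SE 0.49, adjusted p = 0.0053). OCT4, chosen after its values were seen, was the other of 6 OCT genes that rose (0.92, SE 0.14, adjusted p = 0.0065). ALMT1 (AT1G08430), the channel through which roots release malate, was at 2.79, 2.77 and 2.27 RPKM against 17.9, 15.8 and 23.9 RPKM (2.65, SE 0.17, adjusted p = 3.7e-05). OCT1 followed the order of the SPX genes among low Pi libraries, whereas ALMT1 was highest in replicate 3. The vacuolar calcium exchanger CAX3 (AT3G51860), also chosen after its values were seen, rose from 11.9, 15.8 and 12.1 to 40.8, 51 and 47.9 RPKM (1.78, SE 0.16, adjusted p = 0.00031), 1 of 2 rises among 7 tested CAX genes. Beside these OCT and CAX counts, 2.55% of all genes tested rose.

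Some genes of carbon steps that spare Pi and adenylates, or that make organic acids, rose modestly. Of 29 tested, 8 rose and 0 fell (27.6% called, against 4.29% of all genes), with a median log2 fold change of 0.29. PPCK2 (AT3G04530), the kinase that activates phosphoenolpyruvate carboxylase, went from 5.49, 7.78 and 5.93 to 16.2, 14.3 and 17.2 RPKM (1.26, SE 0.11, adjusted p = 0.00023). The carboxylase genes PPC1 and PPC3 rose by 0.62 (SE 0.12, adjusted p = 0.017) and by 0.61 (SE 0.11, adjusted p = 0.011). NADP-ME1, a malic enzyme, was at 3.15, 2.48 and 2.36 RPKM against 6.51, 5.9 and 6.19 RPKM (1.09, SE 0.18, adjusted p = 0.0097). The kinase and the malic enzyme showed no common order of low Pi libraries. PPCK2 and PFK7, a phosphofructokinase (0.54, SE 0.08, adjusted p = 0.007), were the only members called in every fit without 1 library. NADP-ME1 lost its call without control replicate 3 (adjusted p = 0.052), PPC3 without control replicate 3 (0.059) or low Pi replicate 2 (0.05), and PPC1 without control replicate 1 or 3 (0.057 and 0.077) or low Pi replicate 1 or 2 (0.051 and 0.069). The count of rises was 4, 5 and 2 without control replicates 1, 2 and 3 and 6, 3 and 7 without low Pi replicates 1, 2 and 3.

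Several known iron uptake genes were among the largest falls. No list of iron genes was made here, and those given were named for the size of their fall. IRT1 (AT4G19690), the main iron transporter of the root surface, was at 25.2, 33.7 and 25.1 RPKM in control, at 0.592 and 0.129 RPKM in low Pi replicates 1 and 3, and listed at 0 in replicate 2. The log2 fold change came to -5.33 (SE 0.33, adjusted p = 3.7e-05). FRO2 (AT1G01580), which reduces iron before uptake, was at 7.83, 9.06 and 9.02 RPKM against 1.9, 1.31 and 1.48 RPKM (-2.16, SE 0.21, adjusted p = 0.00039). In both genes low Pi replicate 1 was the highest and replicate 2 the lowest of the low Pi libraries, and the media did not overlap. The regulators bHLH38 and bHLH39 fell as neighbours, bHLH38 from 3.79, 3.26 and 3.19 to 0.464, 0.145 and 0.0715 RPKM (-2.46, SE 0.22) and bHLH39 from 8.65, 7.23 and 6.82 to 1.48, 1.36 and 1.35 RPKM (-2.08, SE 0.11). CYP82C4, a P450 of coumarin synthesis, stood at 2.23, 2.83 and 2.47 RPKM in control and had a listed value of 0 in each low Pi library, so no fold is given. OPT3, which moves iron in the phloem, fell from 24.9, 24.4 and 21.3 to 10.4, 8.02 and 8.74 RPKM (-1.34, SE 0.13, adjusted p = 0.0005). bHLH38 and bHLH39 resemble each other closely, so the split of their reads is uncertain.

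Several zinc uptake genes rose, unlike the iron uptake genes above. Of 20 tested zinc genes 7 rose and 2 fell (45% called, against 4.29% of all genes), with a median of 0.23. ZIP9 (AT4G33020), a zinc transporter, was at 1.09, 1.04 and 1.03 RPKM in control and 5.07, 3.93 and 3.77 RPKM on low Pi medium (log2 fold change 1.60, SE 0.18, adjusted p = 0.0013). IRT3, which carries zinc and iron, went from 46.4, 55.7 and 50.5 to 83, 90.9 and 78.4 RPKM (0.72, SE 0.11, adjusted p = 0.0069). Both genes were without overlap and kept their calls without any 1 library, as did ZIP2 (0.59, SE 0.09, adjusted p = 0.006). ZIP4 rose by 0.74 (SE 0.13, adjusted p = 0.014) and lost its call without control replicate 1 or 3 (adjusted p = 0.05 and 0.066) or low Pi replicate 2 (0.051). NAS4 (AT1G56430), which makes the metal chelator nicotianamine, fell from 9.61, 10.5 and 9 to 5.04, 6.35 and 4.72 RPKM (-0.81, SE 0.14, adjusted p = 0.011). Rises numbered 4, 7 and 4 without control replicates 1, 2 and 3 and 6, 3 and 7 without low Pi replicates 1, 2 and 3, and falls 1 in each of these fits except that without low Pi replicate 2, where both remained.

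Copper genes, of which 15.8% were called against 4.29% of all genes, showed no common direction. Of 19 tested, the reductase FRO4 rose (log2 fold change 1.45, SE 0.32, adjusted p = 0.035), and the transporter COPT6 (-0.64, SE 0.11, adjusted p = 0.013) and the superoxide dismutase CSD2 (-0.30, SE 0.07, adjusted p = 0.035) fell. FRO4 was called in no fit without 1 library except that without low Pi replicate 3 (adjusted p 0.061 to 0.11 in the others). CSD2 lost its call without control replicate 1, 2 or 3 (adjusted p = 0.066, 0.092 and 0.12) or low Pi replicate 1 or 2 (0.089 and 0.11), and COPT6 without control replicate 3 (0.062) or low Pi replicate 2 (0.054). The falls numbered 1, 1 and 0 without control replicates 1, 2 and 3 and 1, 0 and 2 without low Pi replicates 1, 2 and 3.

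Part of the water channels fell. Of 34 tested aquaporin genes 8 fell and 2 rose (29.4% called, against 4.29% of all genes), with a median log2 fold change of -0.19. TIP2;3 (AT5G47450), a channel of the vacuolar membrane that also passes ammonia, was at 109, 72.9 and 93.4 RPKM in control and 40.1, 36 and 27.4 RPKM on low Pi medium (-1.40, SE 0.22, adjusted p = 0.0082). RD28 (AT2G37180), a plasma membrane channel, was at 147, 137 and 149 RPKM against 68, 78.1 and 65.6 RPKM (-1.03, SE 0.09, adjusted p = 0.00028). Its neighbour PIP2B (AT2G37170) was at 692, 662 and 667 RPKM against 417, 395 and 324 RPKM (-0.84, SE 0.10, adjusted p = 0.0014). In all 8 that fell, low Pi replicate 3 was the lowest library. PIP1A, PIP2A and the 3 genes just described were called in every fit without 1 library. TIP2;2 (-1.05, adjusted p = 0.015) lost its call without control replicate 1 or 3 (0.055 and 0.057) or low Pi replicate 2 (0.061). PIP2;4 (-0.89, adjusted p = 0.029) lost it without control replicate 1, 2 or 3 (0.073, 0.065 and 0.12) or low Pi replicate 2 or 3 (0.062 and 0.061). Falls numbered 5, 7 and 5 without control replicates 1, 2 and 3 and 10, 5 and 6 without low Pi replicates 1, 2 and 3; the rises dropped to 0, or to 1 without low Pi replicate 3. RD28 and PIP2B are near-identical in sequence, so their split is uncertain.

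Potassium and ammonium transport gave 2 rises and 2 falls among 20 tested genes (20% called, against 4.29% of all genes). SKOR (AT3G02850), the channel that releases potassium into the xylem and also the 1 called member of 11 markers of cortex, pericycle and stele, fell from 9.37, 8.39 and 12.7 to 2.19, 2.97 and 2.7 RPKM (a log2 fold change of -1.76, SE 0.19, adjusted p = 0.00083). The potassium transporter KUP6 rose by 0.52 (SE 0.08, adjusted p = 0.0076) in every fit. The ammonium transporter AMT2 rose by 0.52 (SE 0.09, adjusted p = 0.0097) and lost its call without control replicate 3 (0.052), and AT5G14880 fell by 0.40 (SE 0.08, adjusted p = 0.018) and lost it without control replicate 1 or 3 (0.066 and 0.083) or low Pi replicate 2 (0.064). The summed level of the 11 stele and cortex markers was 310 to 346 RPKM in control and 290 to 323 RPKM in low Pi, so that SKOR moved where most of the list did not pass the test.

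Several cell wall genes of the root hair rose. All 13 markers of epidermis and root hair were tested, and 6 rose and 0 fell (46.2% called, against 4.29% of all genes). The median log2 fold change was 0.48. RHS12 (AT3G10710), a pectin methylesterase, went from 12.2, 12.7 and 10.6 to 28.1, 23 and 19.8 RPKM (0.96, SE 0.13, adjusted p = 0.003). LRX1, a leucine-rich extensin of the hair wall, went from 25, 21 and 18.8 to 47.1, 39.2 and 31.9 RPKM (0.85, SE 0.14, adjusted p = 0.0097). These were the only ones of the 6 called in every fit. EXPA18 (0.75, adjusted p = 0.014) lost its call without control replicate 3 (0.067), and PRP3 (0.67, adjusted p = 0.029) without any control replicate (0.055, 0.078 and 0.11) or low Pi replicate 2 (0.074). Marker rises numbered 3, 5 and 2 without control replicates 1, 2 and 3 and 4, 3 and 7 without low Pi replicates 1, 2 and 3. The summed level of the 13 markers was 231 to 262 RPKM in control and 315 to 437 RPKM in low Pi.

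Of 55 tested extensin and arabinogalactan protein genes 10 rose and 0 fell, although the median of the list was -0.07. The share called was 18.2%, against 4.29% of all genes. PRP1 (AT1G54970), a proline-rich wall protein, was at 8.15, 7.26 and 7.05 RPKM in control and 24.8, 20.4 and 20.5 RPKM on low Pi medium (log2 fold change 1.48, SE 0.19, adjusted p = 0.0024). EXT12 rose from 25.8, 18.4 and 20.6 to 53.7, 43.1 and 38.6 RPKM (1.05, SE 0.17, adjusted p = 0.0087). Both were without overlap and were highest in low Pi replicate 1. EXT6 (1.01, adjusted p = 0.029) lost its call without control replicate 2 or 3 (0.083 and 0.12) or low Pi replicate 1 or 2 (0.068 and 0.078), and EXT10 (0.93, adjusted p = 0.013) without control replicate 3 (0.06) or low Pi replicate 2 (0.051). Extensins hold repeats, so reads may be shared between them. The rises numbered 7, 6 and 4 without control replicates 1, 2 and 3 and 7, 4 and 9 without low Pi replicates 1, 2 and 3. These 3 lists overlap: LRX1, LRX2 and PRP3 count among both the extensins and the epidermis markers and EXPA18 among both the markers and the expansins.

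Expansins and xyloglucan transferases, which loosen walls, split into 4 rises and 5 falls among 51 tested genes (17.6% called, against 4.29% of all genes). The rises were the larger ones. XTH26 (AT4G28850), a xyloglucan transferase, went from 7.63, 8.43 and 8.17 to 39.6, 29.3 and 19.9 RPKM (a log2 fold change of 1.76, SE 0.27, adjusted p = 0.0072). XTH14 (AT4G25820) went from 98.9, 100 and 80.8 to 237, 200 and 156 RPKM (1.06, SE 0.14, adjusted p = 0.0035). Both were called in every fit and were without overlap. XTH13 (1.07, adjusted p = 0.014) lost its call without control replicate 1 or 3 (0.057 and 0.063) or low Pi replicate 2 (0.061). The 5 falls numbered 0, 1 and 0 without control replicates 1, 2 and 3 and 3, 0 and 0 without low Pi replicates 1, 2 and 3, while rises numbered 3, 5 and 2, and 5, 3 and 6. With the replicate block in WT 8 rose and 4 fell. The polygalacturonase inhibitor PGIP1 (AT5G06860), which protects wall pectin, was on no list and went from 19.2, 13.5 and 16.2 to 75, 95 and 143 RPKM (2.6, SE 0.26, adjusted p = 0.00086). Of 27 tested cellulose synthases and relatives (7.41% called), CSLC12 rose (0.93, adjusted p = 0.019) and CSLA02 fell (-0.27, adjusted p = 0.038). CSLC12 lost its call without control replicate 1 or 3 (0.059 and 0.082) or low Pi replicate 1 or 2 (0.055 and 0.07), and CSLA02 lost it in each of the 6 fits (0.064 to 0.11).

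**Figure D3:**
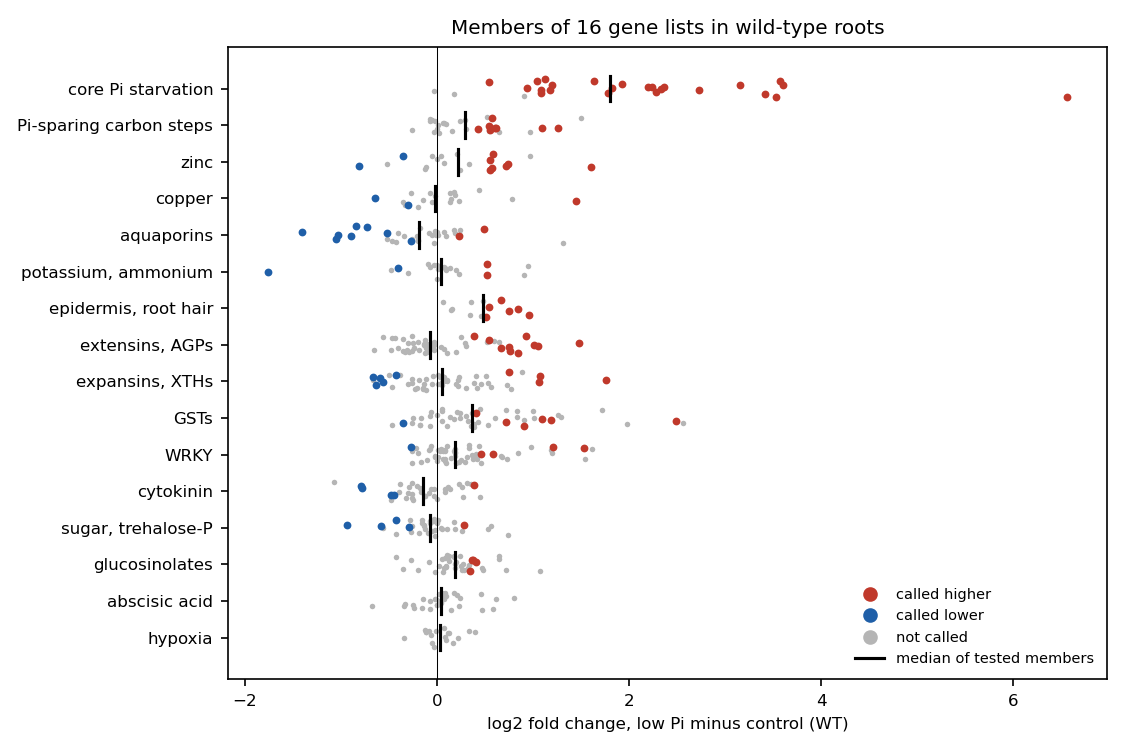
Log2 fold change of low Pi against control for the tested members of 16 lists, 1 point per gene; red points were called higher, blue points lower and grey points not called, and black bars mark medians. The median is 1.8 for the core Pi genes, 0.48 for epidermis and root hair markers, -0.19 for aquaporins and between -0.14 and 0.37 for the others.

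Enzymes that detoxify or meet oxidative stress were raised in part. The peroxidase PRX52 (AT5G05340), which acts in lignin formation, had the largest rise after IPS1 among genes with a symbol, from 0.309, 0.376 and 0.21 to 11, 14.9 and 28.2 RPKM (a log2 fold change of 4.43, SE 0.31, adjusted p = 6.4e-05). Its low Pi libraries ran in the reverse order of those of IPS1. Of 47 tested glutathione S-transferases 6 rose and 1 fell (14.9% called, against 4.29% of all genes), with a median of 0.37. GSTU24 went from 50.1, 48.9 and 40.3 to 93.7, 111 and 114 RPKM (1.19, SE 0.17, adjusted p = 0.0056), and GSTU22 from 32.6, 26.2 and 27.7 to 57.7, 56.1 and 49.6 RPKM (0.91, SE 0.14, adjusted p = 0.0065). Both were called in every fit. GSTU4 (2.49, adjusted p = 0.026) lost its call in each fit except that without low Pi replicate 1 (0.055 to 0.1 in the others), and GSTU25 (1.09, adjusted p = 0.028) in each except that without control replicate 1 (0.051 to 0.1). Rises in this family numbered 4, 4 and 2 without control replicates 1, 2 and 3 and 5, 2 and 2 without low Pi replicates 1, 2 and 3. The single fall was called without control replicate 1 but in none of the other 5 fits, and with the replicate block in WT 2 fell. GLYI4 (AT1G15380), a glyoxalase relative, fell from 223, 226 and 251 to 125, 144 and 133 RPKM (-0.79, SE 0.06, adjusted p = 8.7e-05).

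Transcription factor families changed in few members, and in the AP2/ERF (3.28% called), NAC (5.13%) and MYB (4.94%) families the share called was near that of all genes (4.29%). Among 61 AP2/ERF genes Rap2.6L (AT5G13330) rose from 8.28, 10.6 and 8.88 to 22, 29.4 and 37.4 RPKM (a log2 fold change of 1.60, SE 0.22, adjusted p = 0.0035), and RAP2.11, known from potassium signalling, rose by 0.58 (adjusted p = 0.043) but lost its call in each fit except that without low Pi replicate 3 (0.094 to 0.15). Without low Pi replicate 3, 3 of these genes rose, and without any other library 1 did. Among 78 NAC genes 3 rose and 1 fell. LOV1 (AT2G02450) fell from 5.83, 4.88 and 3.65 to 1.86, 1.53 and 1.26 RPKM (-1.36, SE 0.18, adjusted p = 0.0029) and was called lower in every fit. NAC047 (1.45, adjusted p = 0.012) lost its call without control replicate 3 (0.06) or low Pi replicate 2 (0.051). NAP, a regulator of senescence (1.1, adjusted p = 0.043), kept its call only without low Pi replicate 1, and NAC053 (0.35, adjusted p = 0.046) kept it in none of the 6 fits and lost it with the replicate block in WT (0.059). NAC rises numbered 1, 1 and 0 without control replicates 1, 2 and 3 and 3, 0 and 1 without low Pi replicates 1, 2 and 3.

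Of 60 WRKY genes 4 rose and 1 fell (8.33% called, against 4.29% of all genes), none of them in every fit. WRKY45, an activator of PHT1;1, was at 7.33, 11.6 and 10.2 RPKM in control and 19.5, 32 and 36.9 RPKM on low Pi medium (log2 fold change 1.53, SE 0.31, adjusted p = 0.026), and it lost its call without control replicate 1 or 3 (0.087 and 0.082) or low Pi replicate 2 or 3 (0.086 and 0.085). WRKY31 (1.21, adjusted p = 0.011) and WRKY26 (0.59, adjusted p = 0.012) lost theirs without control replicate 3 (0.058 and 0.06), WRKY26 also without low Pi replicate 2 (0.052). WRKY6, known to repress PHO1 (0.46, adjusted p = 0.025), lost its call without control replicate 1 or 3 (0.07 and 0.1) or low Pi replicate 2 or 3 (0.069 and 0.077). WRKY rises numbered 2, 5 and 0 without control replicates 1, 2 and 3 and 5, 1 and 2 without low Pi replicates 1, 2 and 3, and the fall remained only without control replicate 1. Among 81 MYB genes 2 rose and 2 fell, and MYB88, which acts in stomatal and root growth, fell in every fit, from 18.9, 19.5 and 19.3 to 14.7, 13.8 and 12.7 RPKM (-0.47, SE 0.07, adjusted p = 0.0068). MYB13 rose by 0.48 (adjusted p = 0.012; 0.06 without control replicate 3 and 0.052 without low Pi replicate 2). MYB45 (0.69, adjusted p = 0.024) lost its call without control replicate 1 or 3 or low Pi replicate 2 or 3 (0.064 to 0.1), and MYB20 (-0.41, adjusted p = 0.03) in all 6 fits (0.052 to 0.12). MYB rises numbered 1, 3 and 0 without control replicates and 3, 0 and 1 without low Pi replicates in the order 1 to 3, and falls 1 in each except 2 without low Pi replicate 1. None of 22 LBD genes was called by limma, and 1 was lower with the replicate block in WT. An unadjusted limma p under 0.05 was found for 7 of the 22, and for 20% of all genes tested. NF-YA2 (AT3G05690), chosen after its values were seen, rose from 31.9, 34.6 and 30.2 to 55.9, 44.7 and 52.2 RPKM (0.65, SE 0.09, adjusted p = 0.005).

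Genes that make cytokinins went both ways. Of 36 tested cytokinin genes 4 fell and 1 rose (13.9% called, against 4.29% of all genes), with a median log2 fold change of -0.14. CYP735A1 (AT5G38450), which makes trans-zeatin, went from 3.02, 3.24 and 3.72 to 1.63, 1.67 and 1.86 RPKM (-0.78, SE 0.13, adjusted p = 0.0087), without overlap and in every fit. The isopentenyltransferases IPT5 (-0.79, adjusted p = 0.036) and IPT3 (-0.48, adjusted p = 0.035), which make the cytokinin precursor, and the cytokinin oxidase CKX7 (-0.45, adjusted p = 0.038), which breaks cytokinins down, also fell. IPT5 lost its call in each fit without 1 library (0.052 to 0.13) and with the replicate block in WT (0.055). IPT3 kept its call only without low Pi replicate 2, and CKX7 only without control replicate 1. Cytokinin falls numbered 2, 1 and 1 without control replicates 1, 2 and 3 and 1, 2 and 1 without low Pi replicates 1, 2 and 3, and the rise was lost in each except that without low Pi replicate 1 (adjusted p 0.051 to 0.11). The gene that rose was LOG8, which releases active cytokinins (0.39, SE 0.09, adjusted p = 0.033) and is named after its values were seen; the other 5 LOG genes of the list were not called, with log2 fold changes from -0.32 to 0.45. Of 27 gibberellin genes (7.41% called) the receptor GID1B rose (0.33, adjusted p = 0.048) and the inactivating enzyme ATGA2OX1 fell (-0.82, adjusted p = 0.043). Neither kept its call without any 1 library (0.064 to 0.18 and 0.056 to 0.13) or with the replicate block in WT (0.067 and 0.052), although 2 other genes of the list then fell. None of 31 abscisic acid genes and none of 18 brassinosteroid genes was called by limma, and 9 and 4 had an unadjusted p under 0.05, which 20% of all genes tested had. Without control replicate 2, 1 abscisic acid gene rose.

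Among sugar genes, 3 of the 8 tested genes annotated by symbol as trehalose phosphate phosphatases, which remove the signal sugar trehalose 6-phosphate, fell and 0 rose. That grouping was made after the values were seen, and 1.74% of all genes tested fell. Of 37 tested sugar genes 4 fell and 1 rose (13.5% called, against 4.29% of all genes), with a median of -0.07. TPPE was at 18, 19 and 16 RPKM in control and 10.5, 10.8 and 6.35 RPKM on low Pi medium (log2 fold change -0.93, SE 0.20, adjusted p = 0.028), and TPPH went from 12, 13.3 and 13.8 to 8.93, 7.84 and 8.82 RPKM (-0.58, SE 0.10, adjusted p = 0.011). TPPB fell as well (-0.42, adjusted p = 0.036). The monosaccharide transporter STP4 (-0.29, SE 0.04, adjusted p = 0.0052) was the only one called in every fit. TPPE lost its call without any control replicate (0.082, 0.081 and 0.074), TPPH without control replicate 3 (0.06) or low Pi replicate 2 (0.051), and TPPB in each fit except that without low Pi replicate 2 (0.055 to 0.13). Sugar falls numbered 2, 2 and 1 without control replicates 1, 2 and 3 and 3 without each low Pi replicate, and rises 1, 0 and 0, and 0, 0 and 3, with 2 rises under the replicate block in WT.

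Several lists changed in few genes or in none. The share called was 3.64% of signalling peptide genes and 5.88% of endoplasmic reticulum body genes, near the 4.29% of all genes. It was 8.7% of clock, 10% of glucosinolate and 15.4% of senescence genes. Of 55 signalling peptide genes CLE2 (-0.58, SE 0.07, adjusted p = 0.0014) and RALFL32 (-0.31, SE 0.05, adjusted p = 0.011) fell in every fit; without low Pi replicate 1, 4 fell and 1 rose, and 1 also rose without low Pi replicate 3 or with the replicate block in WT. Of 23 clock genes LHY (-0.26, adjusted p = 0.04) and LCL1 (-0.21, adjusted p = 0.043) fell, and neither kept its call without any 1 library or with the replicate block in WT (0.055 and 0.062). Of 40 glucosinolate genes 4 of methionine chain elongation rose slightly: BCAT4 by 0.41, MAM1 by 0.38, IPMI1 by 0.37 and IMS2 by 0.35. Their adjusted p values were 0.047, 0.026, 0.029 and 0.045, and each lost its call without control replicate 1 or 3 or low Pi replicate 3 (0.061 to 0.13). Glucosinolate rises numbered 0, 9 and 0 without control replicates 1, 2 and 3 and 2, 1 and 0 without low Pi replicates 1, 2 and 3. The endoplasmic reticulum body gene BGLU21 was the 1 rise of 17 (0.84, adjusted p = 0.035), lost in each of the 6 fits (0.054 to 0.1) and with the replicate block in WT (0.053), and WRKY6 and NAP were the 2 rises of 13 senescence genes. Senescence rises numbered 0, 1 and 0 without control replicates and 2, 0 and 0 without low Pi replicates in the order 1 to 3.

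Among 13 phloem markers the sulfate transporter SULTR2;1 rose (1.31, SE 0.24, adjusted p = 0.016), and its call was lost without control replicate 3 (0.058) or low Pi replicate 2 or 3 (0.061 and 0.053). The green leaf markers had a median log2 fold change of -0.36, and 13 of 18 had an unadjusted p under 0.05, against 20% of all genes. At the adjusted threshold the list held 1 rise, FBP (AT1G43670, 0.36, limma adjusted p = 0.014), and 1 fall, RCA (-0.42, limma adjusted p = 0.025). Whether FBP marks leaf tissue in these samples was not tested. The share called was 11.1% of leaf and 7.69% of phloem markers, against 4.29% of all genes. Leaf falls numbered 3, 0 and 0 without control replicates 1, 2 and 3, 0, 1 and 0 without low Pi replicates 1, 2 and 3, and 7 with the replicate block in WT, while FBP lost its call without low Pi replicate 2 (0.052). What part the lower level of leaf markers has in the other differences was not tested. The 8 root cap markers gave 0 calls and 0 unadjusted p under 0.05. Limma also called 0 of 18 core hypoxia genes, 0 of 28 touch genes, 0 of 12 triterpene genes, 0 of 18 lateral root genes and 0 of 33 autophagy genes, where 1, 1, 1, 1 and 7 had an unadjusted p under 0.05. Without low Pi replicate 1, 1 touch gene rose, and without low Pi replicate 3, 1 autophagy gene rose. The 1 tested seed or pollen marker was not called, with an unadjusted p above 0.05. Of 178 microRNA precursor genes with values 40 were tested and 2.5% were called. MIR408 was the 1 called (0.63, limma adjusted p = 0.045), with its call lost in each of the 6 fits (0.056 to 0.15) and with the replicate block in WT (0.059).

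Some of the largest changes belonged to genes without a symbol in the gene table used here. AT2G04460, annotated as a pseudogene, was at 0.0623, 0.0759 and 0.0849 RPKM in control and 60, 38 and 20.6 RPKM in low Pi, a log2 fold change of 6.0 (SE 0.41, adjusted p = 6.4e-05), second only to IPS1. AT5G20790 went from 3.38, 2.56 and 2.58 to 126, 68.1 and 37.6 RPKM (4.38, SE 0.34, adjusted p = 0.00016). Both followed the order of IPS1 in low Pi. Among the falls, AT1G73120 was at 6.48, 5.01 and 4.42 RPKM in control, at 0.112 and 0.277 RPKM in low Pi replicates 1 and 3 and listed at 0 in replicate 2 (-3.21, SE 0.41, adjusted p = 0.0024). The neighbours AT1G47395 and AT1G47400 fell by 2.54 (SE 0.26) and 2.53 (SE 0.23) on the log2 scale.

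The 3 low Pi libraries differed in the level of the genes that rose, and they did so differently for different genes. Of the 24 core Pi genes that rose, 23 were highest in replicate 1 and 1 in replicate 2, and all 24 were lowest in replicate 3. The median difference between replicates 1 and 3 was 1.04 on the log2(RPKM + 0.5) scale. Over all tested genes 33.6% were highest in replicate 1, and the median difference was 0.00. The 6 epidermis markers and the 4 expansin and xyloglucan transferase genes that rose were all highest in replicate 1, as were 9 of the 10 extensins. In contrast, 5 of 6 glutathione S-transferases that rose were highest in replicate 3, and so were PRX52, PGIP1, ALMT1, Rap2.6L and DGR2, a wall protein gene chosen after its values were seen (93.4, 96.8 and 147 RPKM in low Pi). Control libraries showed no such order for the core Pi genes, with 8, 10 and 6 of the 24 highest in replicates 1, 2 and 3. For the extensins that rose they showed a like order, 8 of 10 being highest in control replicate 1 and 9 of 10 lowest in control replicate 3, and all 6 epidermis markers that rose were lowest in control replicate 3. For every called gene all 3 low Pi libraries still lay on the same side of all 3 controls.

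**Figure D4:**
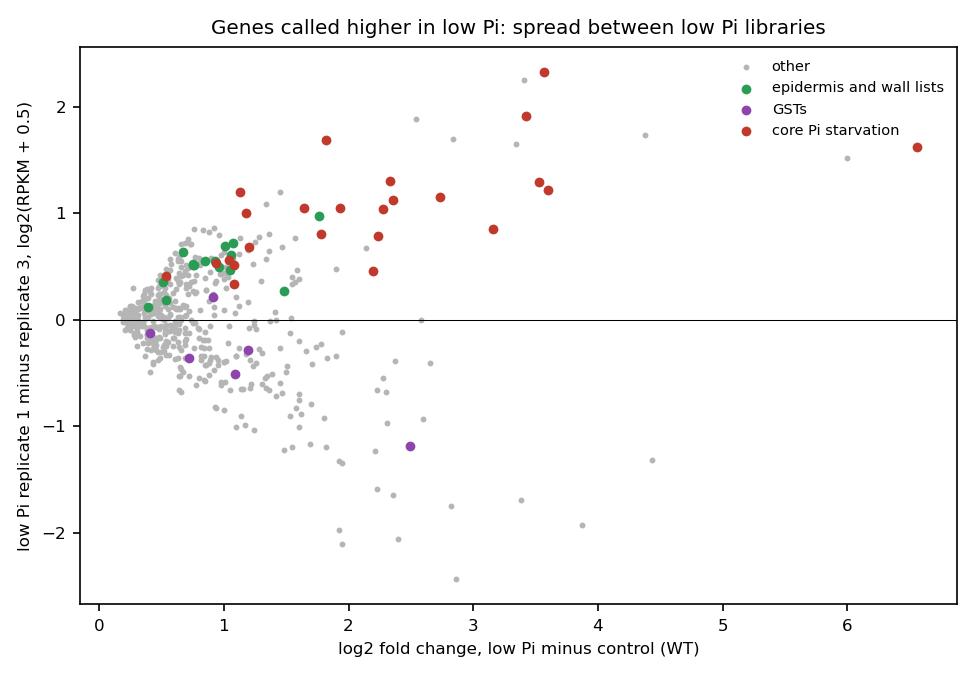
Each point is 1 of 520 genes called higher in low Pi; the x axis gives the log2 fold change and the y axis the difference between low Pi replicates 1 and 3 as log2(RPKM + 0.5). Core Pi genes (red) all lie above 0 with a median of 1.04, epidermis and wall genes (green) lie above 0 as well, and 5 of 6 glutathione S-transferases (purple) lie below 0.

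Of 20289 pairs of genes that follow each other in gene order among those tested, 57 had both genes called, 41 in the same direction and 16 in opposite directions. Of single genes 4.29% were called, 2.55% higher and 1.74% lower. How many such pairs these shares alone would give was not worked out, so the counts are descriptive. In 10 pairs both genes were called in every fit without 1 library, 9 of them in the same direction. They included PHT1;1 with PHT1;2, bHLH38 with bHLH39, AT1G47395 with AT1G47400 and PIP2B with RD28, which are related copies. They also included genes of different function, such as the zinc transporter ZIP9 with the sulfolipid gene SQD1, and IPS1 with AT3G09925. Whether reads of overlapping or adjacent genes were kept apart by strand is likewise not stated.

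The same comparison in otu5 roots, made with 6 other libraries, mostly gave the same direction. Of the 875 genes called in WT, 830 (94.9%) had the same sign in otu5, compared with 70.8% of all genes tested. In otu5 itself 1754 genes were called (8.59%), and 519 were called in the same direction in both genotypes, which is 59.3% of the WT calls and 29.6% of the otu5 calls. Only 3 were called in opposite directions. A test of the difference itself called 1 gene (0.0049%), while 1117 genes (5.47%) had an unadjusted p under 0.05 for it. That gene was PAL4 (AT3G10340), a phenylalanine ammonia lyase at the entry to phenylpropanoids, chosen after its values were seen. In WT it fell from 22.8, 22.2 and 22.8 to 16.7, 17 and 16.3 RPKM (a log2 fold change of -0.43, SE 0.06, adjusted p = 0.006), and in otu5 it rose from 16.7, 13.9 and 14.8 to 21.1, 19.7 and 21.8 RPKM (0.45, adjusted p = 0.0033). The difference was 0.88 (SE 0.09, adjusted p = 0.025). It lost its call without control replicate 1 or 3 (adjusted p = 0.15 and 0.16), without low Pi replicate 1 or 2 (0.063 and 0.11) and with the replicate block over all 12 libraries (0.078), and kept it with the block in WT (0.036).

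For further genes the difference between genotypes depended on the fit. The fit with the block in WT and that without low Pi replicate 3 gave more such calls than any other setting. Over these and the full fit, 26 genes were called at least once. Of the 26, 5 were on the epidermis, extensin or expansin lists, which overlap and hold 13, 55 and 51 of the 20411 genes tested. Whether 5 is more than these lists would give by their size was not tested. XTH14 had a log2 fold change of 1.06 in WT and -0.15 in otu5, a difference of -1.21 (SE 0.20) with an adjusted p of 0.22, which became 0.036 with the replicate block in WT and 0.032 without low Pi replicate 3. For AGP3, an arabinogalactan protein gene named after its values were seen, the values were 0.75 and -0.26, a difference of -1.01 (SE 0.16, adjusted p = 0.22, then 0.044 and 0.027). LRX1 differed by -0.91 (SE 0.20, adjusted p = 0.33, then 0.044 and 0.084). In all, 15 genes were called with the block in WT, 17 without low Pi replicate 3, 3 without control replicate 2 and 0 without control replicate 1 or 3 or low Pi replicate 1 or 2. No core Pi gene was among the 15 or the 17. IPS1 rose by 6.56 in WT and 5.45 in otu5, a difference of -1.12 (SE 0.55, adjusted p = 0.93), and the log2 fold changes of SPX1 were 3.60 and 3.20. IRT1 fell by 5.33 and 4.38 on the log2 scale. ZIP9 rose by 1.60 in WT and had 0.40 in otu5, and that difference did not pass the test (adjusted p = 0.32).

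**Figure D5:**
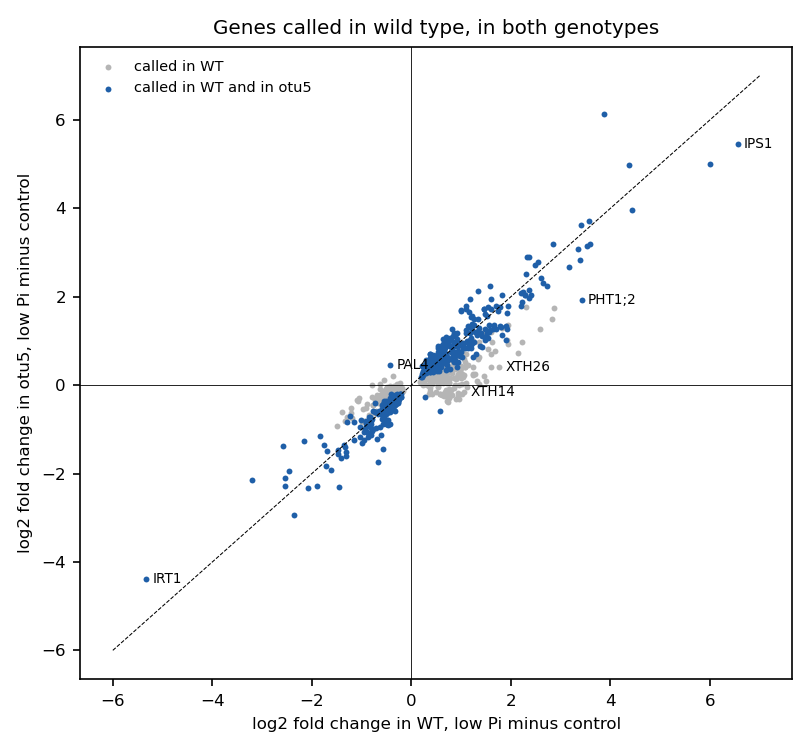
Log2 fold change of low Pi against control in WT (x axis) and in otu5 (y axis) for the 875 genes called in WT; blue points were called in both genotypes, grey points in WT only, and the dashed line marks equal change. IPS1 lies at 6.56 in WT and 5.45 in otu5, IRT1 at -5.33 and -4.38, and XTH14 at 1.06 and -0.15. The change of each of these genes was smaller in otu5.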

How the data were processed

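The values are RPKM as the authors deposited them, in 1 table of 33557 genes with a column per library. Per the submitters' processing notes TopHat2 2.0.4, Cuffdiff and TAIR10 were involved, in roles the notes leave unsaid. Scaling between libraries, strand and the sharing of reads between similar genes are not given in the sources used here. The 8 methylation and 16 chromatin samples were not analysed here.

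From these values log2(RPKM + 0.5) was computed and fitted with limma 3.58.1 in R 4.3.3 as 4 group means over 12 libraries (8 residual degrees of freedom, empirical Bayes with trend and robust estimation), with Benjamini-Hochberg adjustment over the 20411 genes tested and a threshold of 0.05. Another 13146 genes were left out as low. Fold changes are on this scale and understate those of low genes. Median-ratio size factors of the 12 RNA libraries lay between 0.9991 and 1.001, so the deposited values were already level between libraries by this measure. An exact 0 can be a failed estimate, since 35 genes with a median of at least 10 RPKM were at 0 in some library, so such values are called listed at 0. Gene names were looked up in RefSeq (assembly TAIR10.1), which matched 32810 identifiers (97.8%). No sequences were used, and coordinates served only to put genes in order along the chromosomes.

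In WT, same-numbered control and low Pi libraries deviated together (r across genes 0.204, 0.259 and 0.114). Same-numbered otu5 libraries did not (r -0.113, -0.0922 and -0.00403). Instead, otu5 control replicates 1, 2 and 3 gave r of 0.179, 0.11 and 0.152 with otu5 low Pi replicates 2, 3 and 1. The replicate block over 12 libraries thus groups otu5 libraries by numbers that did not deviate together. Genes were named by rule: the 14 largest rises and 14 largest falls with a symbol and 3 of each without, called in the full fit and in all 6 fits without 1 WT library, and up to 4 called members a list. NLA, PFK7, ZIP2, PIP1A, PIP2A and further members of the core Pi list are named beyond this rule. The 38 lists hold 1651 genes, of which 1105 were tested. Members, lists and rules were chosen with earlier results of these data known, so counts and medians describe the lists and no list was tested. The limma step was tested on simulated data. Alternatives were pseudocounts of 1 and 0.1, no filter, quantile normalization, the WT libraries alone, limma without trend and robust estimation, a replicate block, and each WT library left out.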

Additional observations from a re-analysis of the deposited data

Results flagged for a closer look

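The response of PAL4 differed between genotypes by a test of the difference itself. Its log2 fold change with low Pi was -0.43 in WT and 0.45 in otu5, and the difference, otu5 minus WT, was 0.88 (SE 0.09, limma adjusted p = 0.025, 1 of 20411 genes). All 3 low Pi libraries were below all controls in WT and above them in otu5. The call was kept without control replicate 2 (adjusted p = 0.047) or low Pi replicate 3 (0.027). It was lost without any 1 of the other 4 WT libraries (0.063 to 0.16) and with the replicate block over 12 libraries (0.078).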

How the results depend on the processing

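Calls depended on the processing. Of 112 called genes among the 114 examined under every alternative, 0 changed sign under any setting. The WT values of every called gene did not overlap between media, so other pseudocounts or leaving out 1 library could not reverse a sign. For those settings the 0 was thus fixed in advance and is no test of direction. Calls lost numbered 0 and 2 with pseudocounts of 1 and 0.1, 11 with no filter, 7 with quantile normalization, 17 with the WT libraries alone, 9 without trend and robust estimation, and 23 to 50 without 1 library. With the replicate block 18 lost their calls over 12 libraries and 8 in WT alone, an alternative chosen after seeing the data. The block in WT also gave MGD2 a call (limma adjusted p = 0.041). It changed no call of a named gene other than those given above, leaving aside NLA, which was not followed under it. The count of called genes was 687 to 946 under these settings (735 and 946 with the 2 replicate blocks) but 242 to 602 without 1 library, with 150 to 371 rises and 92 to 231 falls. The 1 gene that differed between genotypes became 2 with no filter, 2 without trend and robust estimation, 0 with the replicate block, 15 with the block in WT alone and 0 to 17 without 1 library. The cause was not tested. With 3 libraries a group and unknown read depth, small changes of low genes could not be resolved. The planned count of PHR1 binding motifs in promoters was not run, since no promoter sequences were used here.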
